A study of Mus musculus with 39 samples.

Results

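Matricellular proteins are secreted into the extracellular matrix, where they act on cells and on matrix assembly rather than bearing load themselves. The 10 genes described here encode periostin (Postn), tenascin C (Tnc), osteopontin (Spp1), SPARC (Sparc), the thrombospondins Thbs1, Thbs2, Thbs4 and Comp, and the CCN proteins Ccn2 and Ccn5. They were taken by symbol from the 38293 genes of the count table (Ccn2 is also written Ctgf, and Ccn5 Wisp2), and all 10 were found. They were chosen by name, as a family, with earlier results of these data known.

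As background, matricellular proteins bind integrins, CD36, CD44, CD47, proteoglycans and growth factors, and through these they tune adhesion, collagen assembly and growth factor signalling. Most are scarce in the healthy adult heart and are known to be made after injury and during remodelling, largely by fibroblasts and, for osteopontin, by macrophages. Thrombospondin 1 can activate latent TGF-beta, and Ccn2 is a classical target of TGF-beta and of the YAP and TAZ coactivators.

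RNA was sequenced in 39 left ventricle libraries of C57BL6/J mice, each called a heart here. One set compared the genotype Pln R14del/R14del, called homozygous here, with wt, called wild type, at 3 weeks (n = 4 each), 5 weeks (n = 4 each) and 8 weeks (n = 4 homozygous, n = 3 wild type), and added the genotype Pln wt/R14del, called heterozygous, at 8 weeks (n = 4). R14del removes arginine 14 of phospholamban, the inhibitor of the cardiac calcium pump. The second set held wild type males operated on at 12 weeks of age: ischemia-reperfusion (temporary closure of a coronary artery) sampled 3 days later at 12 weeks of age (n = 4), myocardial infarction (permanent closure) sampled 8 weeks later at 20 weeks of age (n = 4), and sham surgery (n = 4). Operated hearts gave tissue remote from the infarct. The shams were pooled, with replicates 1 and 4 sampled at 12 weeks and replicates 2 and 3 at 20 weeks of age. Sex is labelled for the operated mice only. The labels do not say that each library is a separate animal, so each p-value reflects the spread among libraries, which may be partly technical.

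The bases before the start of 4 members are printed because the groups where these genes were highest differed. Postn and Thbs4 were highest on average in homozygous hearts at 8 weeks, and Tnc and Spp1 after ischemia-reperfusion. These courses overlap below. All 4 rose in homozygous hearts at 5 and 8 weeks, and Postn and Spp1 were called higher after both ischemia-reperfusion and infarction. Each run holds the 250 bases 5′ of 1 RefSeq start (GRCm38.p6), 5′ to 3′ on the gene's own strand. Capitals mark matches, on either strand, to the TATA box spelled TATAAA, the MCAT element of TEAD factors spelled CATTCC, the AP-1 site spelled TGANTCA, the core of SMAD sites spelled CAGAC, whose other strand reads GTCTG, or the CArG box of SRF. RefSeq promoters were held for 6 of the 10 members.
Postn (plus strand, chr3:54360857-54361106): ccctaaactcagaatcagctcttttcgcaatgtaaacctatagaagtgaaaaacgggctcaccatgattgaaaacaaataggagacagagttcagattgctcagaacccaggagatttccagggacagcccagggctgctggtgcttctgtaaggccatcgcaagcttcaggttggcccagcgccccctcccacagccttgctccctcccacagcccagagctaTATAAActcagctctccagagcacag
Tnc (minus strand, chr4:64047016-64047265): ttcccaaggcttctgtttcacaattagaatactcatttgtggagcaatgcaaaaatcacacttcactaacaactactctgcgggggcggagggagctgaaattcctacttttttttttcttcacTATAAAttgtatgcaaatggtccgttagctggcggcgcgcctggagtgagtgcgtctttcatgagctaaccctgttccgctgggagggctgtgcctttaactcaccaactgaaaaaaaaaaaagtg
Spp1 (plus strand, chr5:104434861-104435110): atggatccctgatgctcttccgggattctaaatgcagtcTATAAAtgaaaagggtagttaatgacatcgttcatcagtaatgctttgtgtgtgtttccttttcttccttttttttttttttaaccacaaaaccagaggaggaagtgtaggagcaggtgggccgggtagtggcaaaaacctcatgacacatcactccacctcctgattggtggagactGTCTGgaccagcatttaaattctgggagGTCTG
Thbs4 (minus strand, chr13:92794819-92795068): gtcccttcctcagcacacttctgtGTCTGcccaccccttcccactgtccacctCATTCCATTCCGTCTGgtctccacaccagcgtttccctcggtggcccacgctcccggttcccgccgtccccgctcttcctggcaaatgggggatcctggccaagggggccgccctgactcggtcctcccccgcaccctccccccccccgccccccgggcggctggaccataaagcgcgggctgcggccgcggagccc
Postn carries TATAAA beginning 26 bases before the start shown. In Tnc these letters begin 126 bases and in Spp1 211 bases before the start shown. Thbs4 carries 2 CATTCC matches that overlap by their C, beginning 197 and 192 bases before the start, next to GTCTG at 186 bases, and another GTCTG lies at 226 bases. Spp1 carries GTCTG at 33 and at 5 bases. Postn, Tnc and Spp1 each have another RefSeq start, whose run is not printed. Before that start, CAGAC lay at 191 bases in Postn and at 41 bases in Spp1. In Tnc the run before the other start overlaps the printed one. The TATAAA at 205 bases before that start is the same copy as the one printed, and GTCTG lay at 70 bases. Among all 32851 RefSeq promoters cut to this length, TATAAA was found in 12.4%, CATTCC in 12.6%, TGANTCA in 6.75%, CAGAC in 42.2% and the CArG box in 1.47%. A match describes letters only and not a bound site.

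Levels are CPM, counts scaled to equal library totals, given as mean ± SD between libraries, and per kilobase of exon length where genes are compared with each other. Library totals ran from 9.4 M to 19.3 M counts, with 9.78 M to 12 M at 5 weeks and 13.1 M to 19.3 M at 3 and 8 weeks. No pair of replicates held identical counts. The 8 cardiomyocyte markers summed to between 31313 and 85204 CPM in every library, and none was at 0 in any group. Several libraries stood apart from their groups. Homozygous replicate 3 at 3 weeks held 1621 CPM of Nppa, a stress marker, against 214 to 246 in the other 3, and heterozygous replicate 2 held 2224 against 116 to 249. Sham replicate 4 held 8452 CPM of Myh7, the slow myosin heavy chain, against 276 to 877 in the other shams. Where leaving out one of these libraries changed a call or moved a called fold by over 1.5 times, both values are given, except for homozygous against heterozygous hearts. In that comparison the members are given by their median only. As single libraries were left out of it, the rise of Thbs4 ran from 3.76 to 4.83 on the log2 scale. Without sham replicate 4, the same 8 members were called after ischemia-reperfusion and the same 7 after infarction. Homozygous replicate 1 at 8 weeks also stood apart from the other homozygous libraries of its age. Its cardiomyocyte markers summed to 48038 CPM against 31313 to 37043 in the others. Its macrophage markers summed to 1616 CPM against 2436 to 3408, and its lymphocyte markers to 3.09 CPM against 19.7 to 30.5.

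Per kilobase, Sparc was the most abundant of the 10 transcripts in 9 of the 10 groups, with 177 ± 13.6 CPM per kb in wild type hearts at 8 weeks. Ccn2 followed it in all 9 of those groups except ischemia-reperfusion, where Spp1 came next at 234 ± 99.6 CPM per kb. In homozygous hearts at 8 weeks Ccn2 led with 657 ± 105 CPM per kb, ahead of Sparc with 580.0 ± 221. Tnc or Spp1 was the scarcest in 8 of the 10 groups, and Comp in homozygous hearts at 5 weeks and after ischemia-reperfusion. The 9 members other than Sparc together held 200.4 to 226 CPM in wild type hearts at 8 weeks and 3905 to 5109 CPM in homozygous hearts of that age. With Sparc the sums were 823 to 920 and 5370 to 8074 CPM. These groups did not overlap in either sum.

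**Figure D1:**
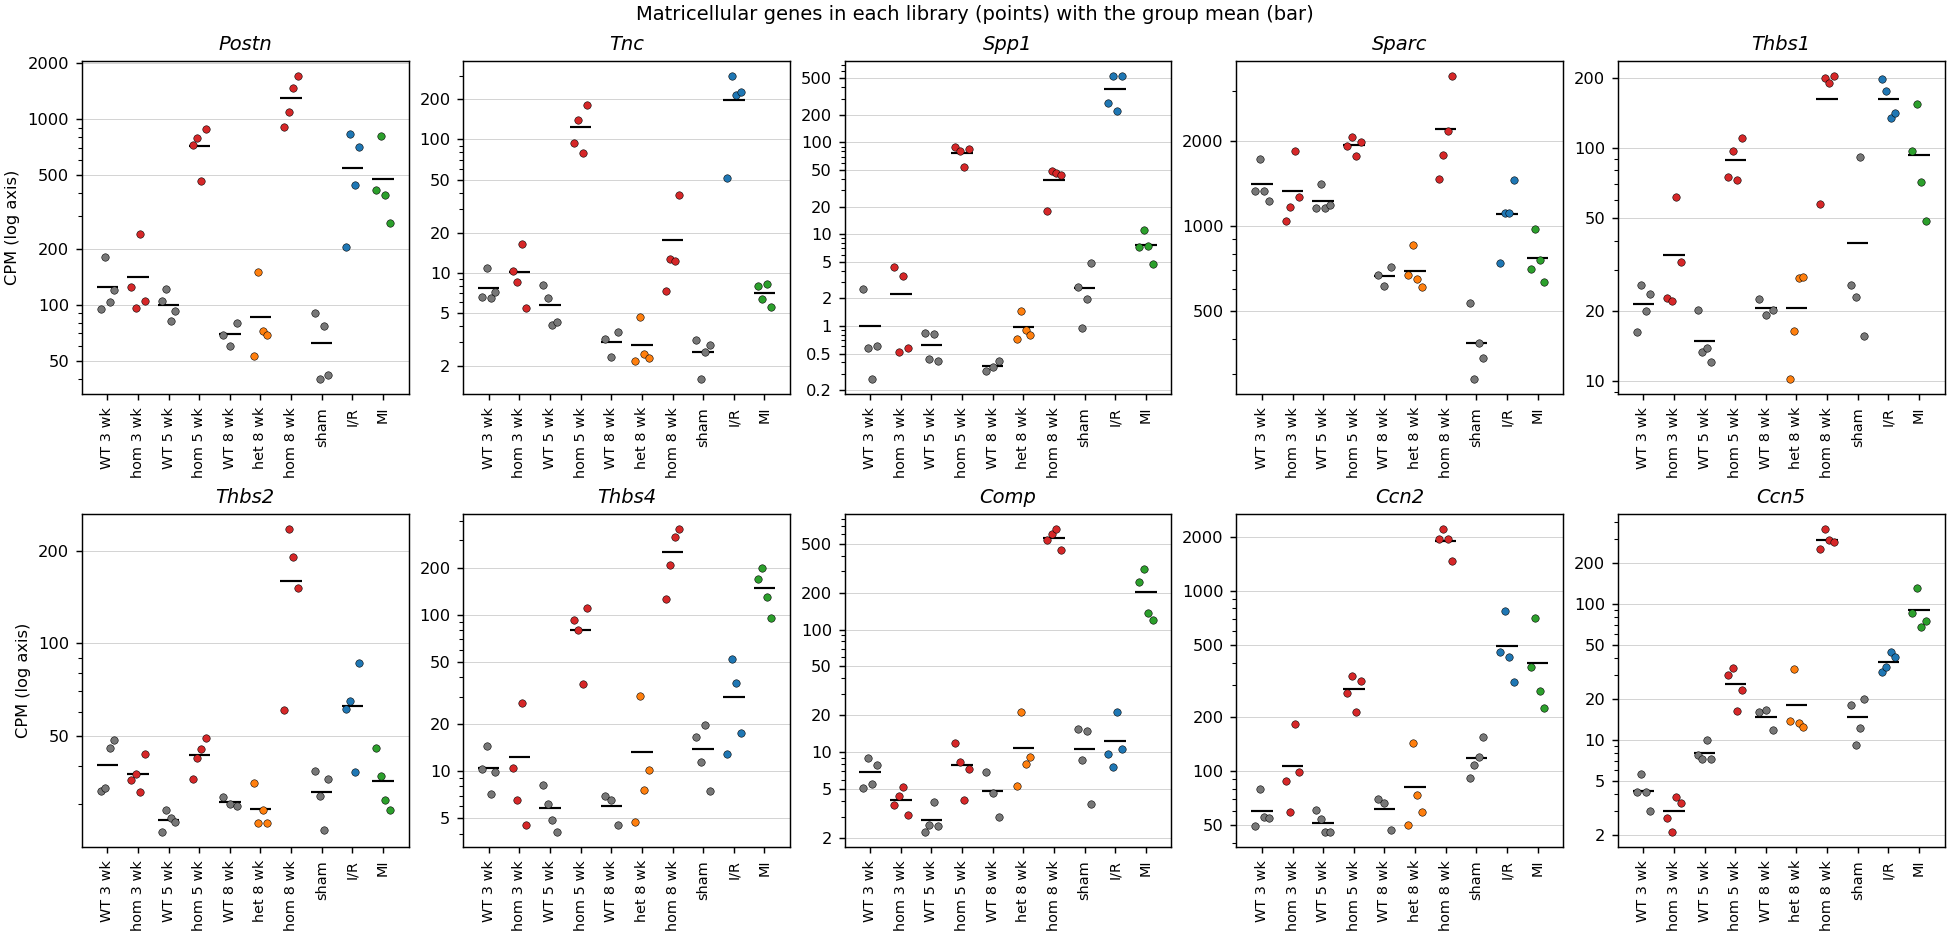
CPM (log axis) of the 10 genes in each of the 39 libraries, with 1 point per library, a bar at the group mean, WT for wild type, hom for homozygous, het for heterozygous, I/R for ischemia-reperfusion and MI for infarction. Comp stands at 448 to 655 CPM in homozygous hearts at 8 weeks and at 4.09 to 11.9 at 5 weeks, while Tnc stands at 7.36 to 38.6 and 79.8 to 180 CPM in the same groups.

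Gene by gene, counts were tested with edgeR's quasi-likelihood test over all genes, and a gene was called at a Benjamini-Hochberg adjusted p under 0.05. Between homozygous and wild type hearts at 5 weeks, all 10 members were higher, with log2 fold changes from 0.45 to 6.72 and a median of 2.31, where 22.3% of all genes tested were called higher and 21.4% lower. At 8 weeks all 10 were higher again, from 1.54 to 6.67 with a median of 4.10, where 30.8% of all genes were called higher and 29% lower. Against heterozygous hearts at 8 weeks, which share the homozygous libraries with that comparison, all 10 were higher too, with a median of 3.78 (32% of all genes higher, 30% lower). After ischemia-reperfusion 8 members were higher than in sham hearts and Thbs4 and Comp were not called, with a median of 1.54 over all 10 (16.9% of all genes higher, 14.1% lower). After infarction 7 were higher and Tnc, Thbs1 and Thbs2 were not called, with a median of 1.53 (6.62% of all genes higher, 4.77% lower). Both surgery comparisons use the same shams. No member was called lower in any of these comparisons, in which the median of all genes lay between -0.02 and 0.02. In such bulk samples a change in the number of cells of a type and a change in RNA per cell cannot be told apart.

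**Figure D2:**
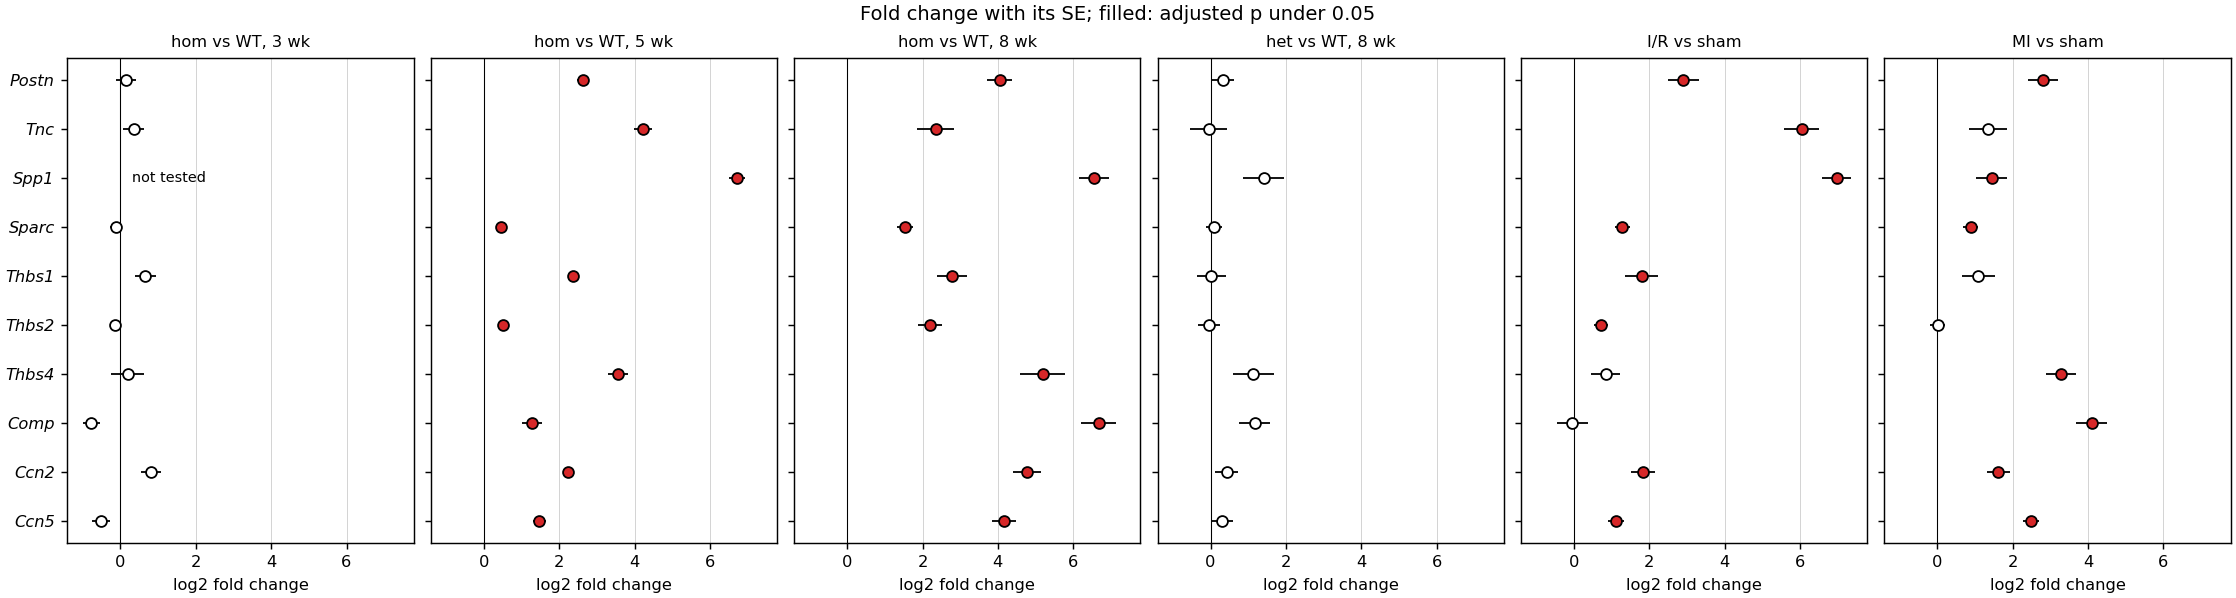
Log2 fold change (x axis) of each gene (y axis) in 6 comparisons with its SE, where filled points passed an adjusted p under 0.05. All 10 points are filled at 5 and at 8 weeks, none at 3 weeks or in heterozygous hearts, and Comp lies at -0.05 after ischemia-reperfusion and at 4.09 after infarction.

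At 3 weeks edgeR called 0 of the 9 members tested, and 0% of all genes in either direction. Spp1 did not pass the filter on low counts there. Unadjusted p-values under 0.05 were found for 4 members (Thbs1, Comp, Ccn2 and Ccn5) and for 1515 of 13427 genes, and DESeq2 called 0 members and 112 genes. Ccn2 differed by 0.81 ± 0.27 on the log2 scale (edgeR adjusted p = 0.339), with 88.6, 59.5, 183 and 98.9 CPM in the 4 homozygous hearts and 49.8 to 79.7 CPM in wild type hearts. Thbs1 differed by 0.67 ± 0.29 and Comp by -0.77 ± 0.22 (edgeR adjusted p = 0.427 and 0.267). Homozygous replicate 3, the library with high Nppa, was the highest of its group in Postn (239 CPM), Tnc (16.3), Sparc (1837), Thbs1 (61.8), Thbs4 (27.5), Comp (5.23), Ccn2 (183) and Ccn5 (3.81). Without it the difference in Ccn2 was 0.45 ± 0.18, that in Thbs1 0.26 ± 0.17 and that in Thbs4 -0.54 ± 0.27, against 0.20 ± 0.44 with it, and none was called.

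In heterozygous hearts at 8 weeks edgeR called 0 of 10 members against wild type, and 0% of all genes higher or lower. Unadjusted p-values under 0.05 were found for Spp1 and Comp and for 326 of 14314 genes, and DESeq2 called 0 members and 0 genes. Heterozygous replicate 2 was the highest of the group in Postn, Tnc, Spp1, Sparc, Thbs4, Comp, Ccn2 and Ccn5. It held 21.2 CPM of Comp where the other 3 held 5.28 to 9.21, and 30.2 CPM of Thbs4 where the others held 4.76 to 10.2. Comp differed from wild type by 1.17 ± 0.41 with this library and 0.65 ± 0.30 without it, and Thbs4 by 1.14 ± 0.55 and 0.36 ± 0.38. For Spp1 the values were 1.41 ± 0.54 and 1.18 ± 0.58, and its 4 heterozygous libraries held 0.725, 1.45, 0.902 and 0.796 CPM against 0.326 to 0.411 CPM in wild type hearts, or 14 to 25 counts against 6 in each. Values that miss the threshold do not show that heterozygous hearts equal wild type.

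Postn, which encodes a collagen and integrin binding protein used as a marker of activated fibroblasts, was highest in homozygous hearts at 8 weeks. Those 4 hearts held 908, 1094, 1476 and 1704 CPM, and the wild type hearts 68.4, 60.1 and 80.2. At 5 weeks the homozygous hearts held 724, 796, 463 and 888 CPM and the wild type hearts 105, 121, 81.6 and 92.7. The groups did not overlap at either age, and the gene rose by 2.63 ± 0.15 at 5 weeks and 4.05 ± 0.34 at 8 weeks (edgeR adjusted p = 8.29e-11 and 1.37e-06). Ischemia-reperfusion hearts held 205, 833, 442 and 704 CPM, with replicate 1 the lowest, and infarcted hearts 416, 809, 391 and 276, all above the shams with 90.5, 39.8, 76.5 and 41.8. Postn rose by 2.90 ± 0.41 after ischemia-reperfusion and by 2.80 ± 0.41 after infarction (edgeR adjusted p = 9.20e-05 and 0.000761). Its levels in homozygous hearts at 5 weeks, after ischemia-reperfusion and after infarction overlapped.

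Tnc encodes tenascin C, a large glycoprotein that appears in tissue at sites of inflammation and repair. Its mean was highest after ischemia-reperfusion, where the range overlapped that of homozygous hearts at 5 weeks, with 51.6, 298, 214 and 228 CPM against 3.14, 1.6, 2.56 and 2.87 in the shams, a rise of 6.04 ± 0.46 on the log2 scale (edgeR adjusted p = 5.85e-07). Infarcted hearts held 7.91, 6.36, 8.24 and 5.55 CPM. All 4 lay above all shams, yet the difference of 1.35 ± 0.51 was not called (edgeR adjusted p = 0.101). DESeq2 called it (adjusted p = 0.0343), as did edgeR with no filter on low counts (adjusted p = 0.0376) and edgeR without ischemia-reperfusion replicate 1, which shares the fit and held 51.6 CPM (adjusted p = 0.000781). In the mutant set Tnc was higher at 5 weeks than at 8 weeks. The 4 homozygous hearts held 94.3, 139.9, 79.8 and 180.0 CPM at 5 weeks and 7.36, 12.7, 12.3 and 38.6 at 8 weeks, and the age groups did not overlap. Wild type hearts held 8.13, 6.45, 4.06 and 4.26 CPM at 5 weeks and 3.21, 2.35 and 3.57 at 8 weeks. Tnc rose by 4.23 ± 0.23 at 5 weeks and by 2.35 ± 0.48 at 8 weeks (edgeR adjusted p = 8.07e-11 and 0.00104). A gene annotated on the opposite strand, 8030451A03Rik, shares 176 exon bases with Tnc and had 9 counts over all libraries.

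Spp1 encodes osteopontin, a phosphoprotein that binds integrins and CD44. It moved from near the detection limit to high levels, since the 3 wild type hearts at 8 weeks had 6 counts each (0.326, 0.362 and 0.411 CPM) and ischemia-reperfusion hearts held 267, 527, 222 and 527 CPM. Homozygous hearts held 88.7, 80.9, 53.6 and 85.6 CPM at 5 weeks and 18.0, 48.6, 46.6 and 44.3 CPM at 8 weeks, with replicate 1 the lowest of the older group. Wild type hearts at 5 weeks held 0.841, 0.442, 0.813 and 0.417 CPM, or 9, 5, 9 and 5 counts. At that age Spp1 thus passed the filter on low counts through the homozygous hearts. The rises were 6.72 ± 0.21 at 5 weeks, 6.54 ± 0.39 at 8 weeks and 6.98 ± 0.39 after ischemia-reperfusion (edgeR adjusted p = 8.53e-14, 3.19e-07 and 7.23e-08). Without homozygous replicate 1 the change at 8 weeks was 6.76 ± 0.21. Infarcted hearts held 7.31, 11.1, 7.53 and 4.78 CPM and shams 2.69, 0.957, 1.96 and 4.85, so the highest sham exceeded the lowest infarcted heart. The rise of 1.44 ± 0.41 (edgeR adjusted p = 0.0362) was lost when any of infarction replicates 1, 2 and 3 or sham replicates 1, 2 and 3 was left out (adjusted p up to 0.118).

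Macrophage markers rose in the comparisons where Spp1 and Tnc rose most. The summed level of 12 such markers was 481 to 518 CPM in wild type and 2174 to 2825 in homozygous hearts at 5 weeks, and 438 to 569.8 against 1616 to 3408 at 8 weeks. It was 297 to 517 CPM in shams, 1409 to 2359 after ischemia-reperfusion and 519 to 776 after infarction. No marker of the list was at 0 in any group. All 12 rose at 5 weeks, at 8 weeks and after ischemia-reperfusion, and 3 after infarction. For the change in the homozygous effect from 5 to 8 weeks, which was -1.85 ± 0.67 in Tnc, 2 of the 12 were called higher and none lower. Their median was 0.31, and 14.4% of all genes were called higher and 13.8% lower. Of the markers not called, Ccr2 lay lowest at -1.32 ± 0.59 and Lgals3 highest at 0.93 ± 0.56. Lgals3, which encodes galectin 3, rose by 5.02 ± 0.13 at 5 weeks and by 4.90 ± 0.39 after ischemia-reperfusion, and Cd68 by 2.95 ± 0.19 (edgeR adjusted p = 4.86e-15, 8.86e-07 and 3.22e-07). Their part in the result was not tested.

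**Figure D3:**
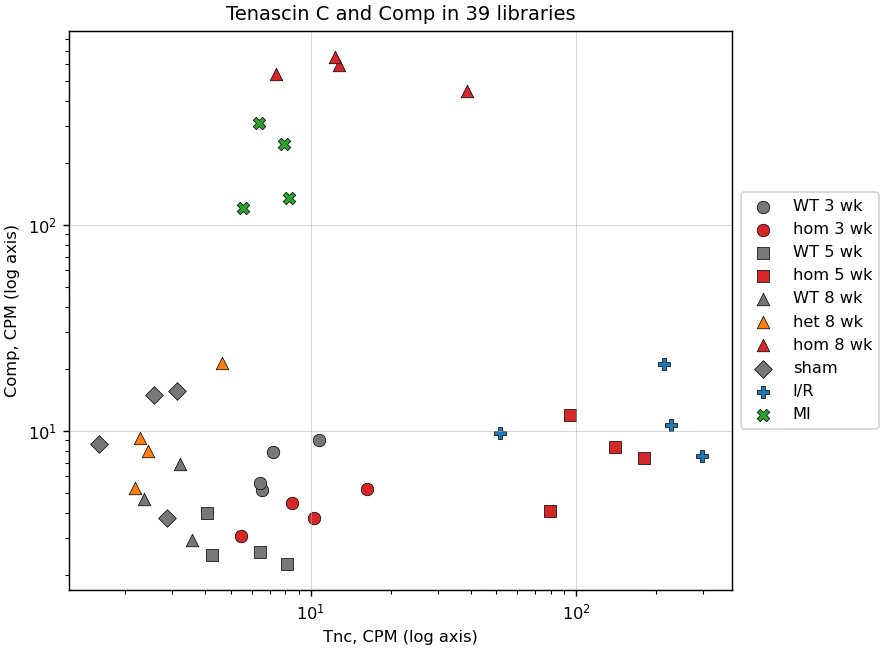
Tnc (x axis) against Comp (y axis) in CPM, both on log axes, with 1 point per library and a colour and shape per group. The 4 ischemia-reperfusion and 4 homozygous hearts at 5 weeks lie at high Tnc (51.6 to 298 CPM) with Comp of 4.09 to 21.1, while the 4 infarcted hearts and 4 homozygous hearts at 8 weeks lie at high Comp (120 to 655 CPM) with Tnc of 5.55 to 38.6.

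The thrombospondins differed in the groups where they were high. Comp, the pentameric cartilage oligomeric matrix protein of cartilage and tendon, was high in homozygous hearts at 8 weeks, with 539.7, 598, 655 and 448 CPM against 6.9, 4.64 and 2.95 in wild type hearts. It rose there by 6.67 ± 0.47 on the log2 scale (edgeR adjusted p = 5.69e-07). Infarcted hearts held 246, 311, 135 and 120.4 CPM against 15.5, 8.61, 14.9 and 3.76 in shams, a rise of 4.09 ± 0.41 (edgeR adjusted p = 7.35e-05). No library of another group held more than 21.2 CPM. At 5 weeks the homozygous hearts held 11.9, 8.29, 4.09 and 7.34 CPM and the wild type hearts 2.24, 2.56, 3.97 and 2.5, a rise of 1.28 ± 0.27 (edgeR adjusted p = 0.000818) without overlap. Ischemia-reperfusion hearts held 9.74, 7.57, 21.1 and 10.6 CPM, overlapping the shams (difference -0.05 ± 0.41, edgeR adjusted p = 0.944).

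Thbs4, a pentameric thrombospondin made in heart and tendon after injury, rose in homozygous hearts at 5 and at 8 weeks. Homozygous hearts held 92.4, 80.5, 36.1 and 110.1 CPM at 5 weeks and 126, 209, 316 and 352 at 8 weeks, against 8.22, 6.19, 4.88 and 4.09 and 6.96, 6.51 and 4.53 in wild type hearts. The rises were 3.57 ± 0.27 and 5.18 ± 0.59 (edgeR adjusted p = 3.81e-09 and 1.13e-05). Infarcted hearts held 169, 199.5, 129 and 95.2 CPM and shams 16.6, 11.4, 19.9 and 7.52, without overlap, a rise of 3.28 ± 0.39 (edgeR adjusted p = 0.000242). After ischemia-reperfusion the 4 hearts held 13.0, 51.9, 36.4 and 17.6 CPM and overlapped the shams. The difference of 0.85 ± 0.39 was not called (edgeR adjusted p = 0.109). It was called with scaling by library size (adjusted p = 0.0417) and without ischemia-reperfusion replicate 1 (adjusted p = 0.0287).

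Thbs1, an activator of latent TGF-beta and a ligand of CD36 and CD47, stood at 74.6, 96.6, 72.8 and 110.3 CPM in homozygous hearts at 5 weeks and 57.3, 199.8, 191 and 203 at 8 weeks. Wild type hearts held 20.1, 13.3, 13.9 and 12.1 and 22.6, 19.2 and 20.1 CPM. It rose by 2.37 ± 0.14 and 2.78 ± 0.41 (edgeR adjusted p = 2.24e-10 and 8.05e-05), with homozygous replicate 1 the low library at 8 weeks. The shams held 25.9, 22.9, 91.5 and 15.6 CPM, with replicate 3, aged 20 weeks, far above the others. Ischemia-reperfusion hearts held 197, 175, 134 and 142 CPM, all above all shams, and rose by 1.79 ± 0.44 (edgeR adjusted p = 0.00635). Infarcted hearts held 96.9, 155, 71.1 and 48.4 CPM. The difference from shams was 1.09 ± 0.44 (edgeR adjusted p = 0.123) with sham replicate 3 and 1.99 ± 0.31 (adjusted p = 0.00204) without it. Leaving it out moved the change after ischemia-reperfusion to 2.69 ± 0.31. This sham has the age of the infarcted hearts, and against the 20-week shams alone the infarction difference was 0.51 ± 0.44 (adjusted p = 0.532).

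Thbs2, which like Thbs1 is trimeric and binds matrix proteases, moved least of the thrombospondins at 5 weeks. Homozygous hearts held 36.2, 42.5, 45.3 and 49.2 CPM and wild type hearts 24.3, 28.7, 27.0 and 26.2 at 5 weeks, without overlap. At 8 weeks homozygous hearts held 60.7, 236, 191 and 151 CPM, with replicate 1 the lowest, and wild type hearts 31.5, 30.1 and 29.6. The rises were 0.50 ± 0.09 and 2.20 ± 0.31 (edgeR adjusted p = 0.000238 and 5.70e-05). After ischemia-reperfusion Thbs2 stood at 61.2, 65.2, 38.2 and 86.5 CPM against 38.3, 31.8, 24.6 and 36.2 in shams, with overlap between 38.2 and 38.3 CPM, a rise of 0.71 ± 0.19 (edgeR adjusted p = 0.0101) that was not called against the 12-week shams alone (0.56 ± 0.23, adjusted p = 0.123). After infarction it held 45.7, 37.0, 31.0 and 28.6 CPM and differed by 0.01 ± 0.19 (edgeR adjusted p = 0.983). The rise at 5 weeks was not called when the fit held all 39 libraries (adjusted p = 0.0845).

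Per kilobase of exon, the share of each gene among these 4 transcripts is given as a description, with no test. Thbs2 made up 39.2% ± 7.49, 42.7% ± 5.77 and 39.1% ± 3.54 of the sum in wild type hearts at 3, 5 and 8 weeks (SD between libraries), the largest share at each age. In homozygous hearts Thbs4 led at 5 weeks with 49.2% ± 9.51, and Comp led at 8 weeks with 61.0% ± 11.6, from 48.2% to 76.3% across the 4 libraries. Comp also led after infarction with 50.3% ± 3.78. After ischemia-reperfusion Thbs1 led with 54.6% ± 8.38, against 30.2% ± 13.9 in shams, where sham replicate 3 reached 50.8%.

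**Figure D4:**
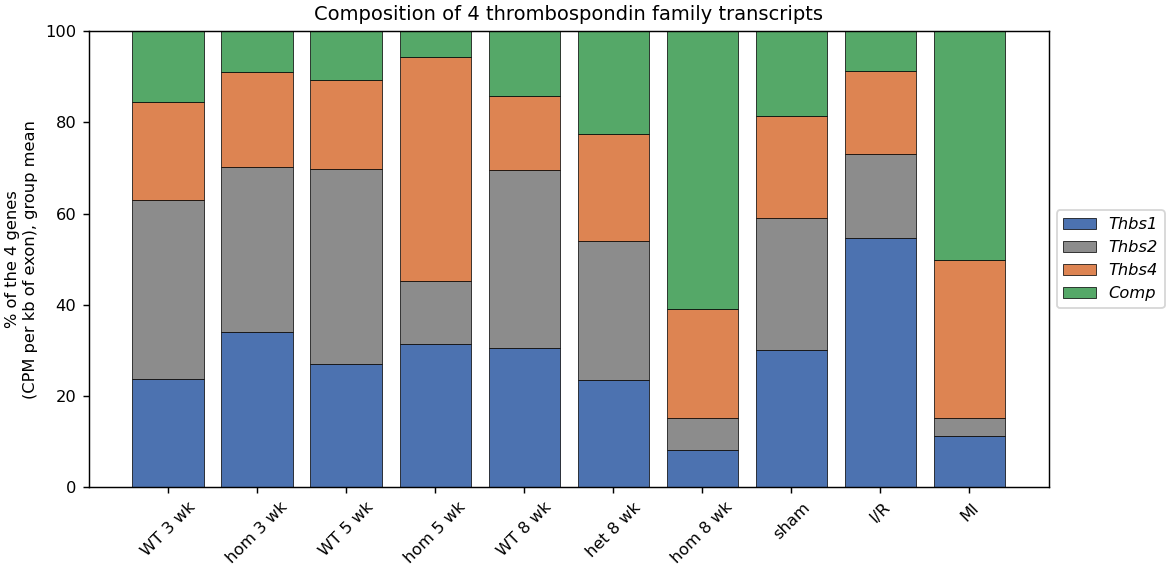
Group mean share (percent, y axis) of Thbs1, Thbs2, Thbs4 and Comp in their summed CPM per kb of exon, for the 10 groups on the x axis. Comp takes 61% in homozygous hearts at 8 weeks and 50.3% after infarction, and Thbs1 takes 54.6% after ischemia-reperfusion.

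Ccn2, the connective tissue growth factor, was higher in homozygous hearts at 8 weeks than at 5 weeks. They held 272, 336, 212 and 318 CPM at 5 weeks and 1934, 2193, 1926 and 1469 CPM at 8 weeks, where wild type hearts held 61.0, 54.4, 46.0 and 46.0 and 70.2, 67.0 and 47.4. Neither homozygous group overlapped its wild type group or the other age, and the rises over wild type were 2.25 ± 0.12 and 4.77 ± 0.36 (edgeR adjusted p = 3.11e-11 and 8.37e-07). Ischemia-reperfusion hearts held 455, 771, 428 and 312 CPM, infarcted hearts 380.4, 704, 279 and 225 and shams 92.2, 108, 120.1 and 154. The rises were 1.83 ± 0.31 and 1.62 ± 0.31 (edgeR adjusted p = 0.000439 and 0.00446). Gm15270, annotated on the opposite strand, shares 665 exon bases with Ccn2 and had 1746 counts over all libraries. Whether strand was used in counting is not given in the sources used here. Reads of this pair therefore may not be separable.

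Ccn5 encodes a CCN protein that lacks the carboxy-terminal domain of Ccn2 and is known to oppose some of its actions. Homozygous hearts held 30.2, 33.4, 16.4 and 23.1 CPM at 5 weeks and 254, 353, 296 and 285 at 8 weeks, against 7.66, 7.25, 9.93 and 7.26 and 15.9, 16.6 and 11.8 in wild type hearts. It rose by 1.47 ± 0.18 and 4.16 ± 0.32 (edgeR adjusted p = 1.71e-06 and 8.20e-07). Infarcted hearts held 85.9, 129.9, 68.0 and 74.7 CPM and ischemia-reperfusion hearts 31.3, 34.0, 44.1 and 40.4, without overlap between them or with the shams at 17.8, 9.15, 12.2 and 19.9. The rises were 2.49 ± 0.21 and 1.12 ± 0.21 (edgeR adjusted p = 2.85e-05 and 0.000919).

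Sparc, a collagen-binding protein that serves collagen maturation, had the highest starting level and the smallest fold changes in the mutant set. Homozygous hearts held 1909.9, 2055, 1772 and 1977 CPM at 5 weeks and 1464, 1781, 2163 and 3380.1 at 8 weeks, and wild type hearts 1158, 1409, 1157 and 1185 and 671, 616 and 719.6, without overlap at either age. It rose by 0.45 ± 0.07 and 1.54 ± 0.21 (edgeR adjusted p = 5.88e-05 and 5.53e-05), and the call at 5 weeks was lost in a fit of all 39 libraries (adjusted p = 0.0517). Ischemia-reperfusion hearts held 741, 1114, 1109.8 and 1458 CPM, infarcted hearts 708, 977, 761 and 634 and shams 535, 289, 386 and 342. The rises were 1.28 ± 0.19 and 0.88 ± 0.19 (edgeR adjusted p = 0.000154 and 0.00864).

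The 2 injuries differed from each other in 6 members. Thbs1, at 0.70 ± 0.43 (edgeR adjusted p = 0.274), was not among them. Spp1, Tnc and Thbs2 were higher after ischemia-reperfusion than after infarction and Comp, Thbs4 and Ccn5 lower, where 11.2% of all genes were called higher and 8.84% lower. Spp1 differed by 5.53 ± 0.34 and Tnc by 4.69 ± 0.41 (edgeR adjusted p = 2.47e-07 and 4.33e-06). Comp differed by -4.14 ± 0.40, Thbs4 by -2.43 ± 0.37 and Ccn5 by -1.36 ± 0.19 (edgeR adjusted p = 1.08e-05, 0.000383 and 0.000248). Thbs2 differed by 0.70 ± 0.19 (edgeR adjusted p = 0.0154), a call lost without ischemia-reperfusion replicate 4 or infarction replicate 4 (adjusted p up to 0.0559). Sparc, at 0.40 ± 0.19, was called without ischemia-reperfusion replicate 1 (adjusted p = 0.0381, against 0.148 with it). The injuries also differ in the time since surgery, in how the artery was closed and in the age at sampling, which cannot be told apart here. Against shams of matching age, 7 members were called after ischemia-reperfusion, without Thbs2, and the same 7 as with all shams after infarction. Thbs1 then stood at 2.77 ± 0.38 after ischemia-reperfusion, against 1.79 ± 0.44, and Spp1 at 2.16 ± 0.55 after infarction, against 1.44 ± 0.41 (edgeR adjusted p with matching shams = 0.000588 and 0.037). Tnc rose by 5.85 ± 0.66 after ischemia-reperfusion and Comp by 3.91 ± 0.47 after infarction (edgeR adjusted p = 0.000173 and 0.00246).

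Whether the effect of the mutation changed with age was tested as the difference between effects in a fit of all 39 libraries. From 3 to 5 weeks the effect grew for 8 members and for none shrank, while Sparc and Thbs2 were not called (11.1% of all genes higher, 9.29% lower). Spp1 had not passed the filter on low counts at 3 weeks, so its effect at that age was not tested by itself. Its wild type libraries held 39, 9, 4 and 8 counts at 3 weeks and 9, 5, 9 and 5 at 5 weeks. The gain was 5.54 ± 0.96 for Spp1, 3.85 ± 0.59 for Tnc, 3.36 ± 0.71 for Thbs4 and 2.48 ± 0.48 for Postn (edgeR adjusted p = 8.54e-05, 1.87e-05, 0.000853 and 0.000364). For Thbs1 it was 1.70 ± 0.58 (edgeR adjusted p = 0.0352), and this call was lost without any 1 of 10 of the 16 libraries, the others being wild type replicates 1 and 3 and homozygous replicate 3 at 3 weeks, and wild type replicate 1 and homozygous replicates 1 and 3 at 5 weeks (adjusted p up to 0.0741). For Comp, at 2.04 ± 0.64 (edgeR adjusted p = 0.0219), it was lost without homozygous replicate 1 at 5 weeks or wild type replicate 2 at 3 weeks (adjusted p up to 0.0619). Without homozygous replicate 3 at 3 weeks the gain was 4.07 ± 0.69 for Thbs4, 2.81 ± 0.49 for Postn and 2.09 ± 0.58 for Thbs1, and that in Sparc, 0.70 ± 0.25, was called (adjusted p = 0.0418). A fit of only the 4 groups called Sparc and Thbs2 as well (adjusted p = 0.0321 and 0.0189).

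From 5 to 8 weeks the effect grew for Comp, Ccn5, Ccn2, Thbs2, Postn and Sparc and shrank for Tnc (14.4% of all genes higher, 13.8% lower). The gain was 5.42 ± 0.69 for Comp, 2.71 ± 0.37 for Ccn5, 2.55 ± 0.46 for Ccn2 and 1.73 ± 0.33 for Thbs2 (edgeR adjusted p = 4.21e-07, 1.24e-06, 7.37e-05 and 0.000153). The change in Tnc was -1.85 ± 0.67 (edgeR adjusted p = 0.0348). That call was lost without any 1 of 9 of the 15 libraries, namely homozygous replicates 2 and 4 and wild type replicates 3 and 4 at 5 weeks, and homozygous replicates 1, 2 and 3 and wild type replicates 1 and 3 at 8 weeks (adjusted p up to 0.0891). Without homozygous replicate 4 at 8 weeks, the library with 38.6 CPM, it was -2.51 ± 0.61 (adjusted p = 0.00178). The gain in Postn, 1.44 ± 0.50 (edgeR adjusted p = 0.0293), was lost without homozygous replicate 3 or wild type replicate 2 at 5 weeks, or homozygous replicate 3 or 4 or wild type replicate 1 or 2 at 8 weeks (adjusted p up to 0.0735). Thbs4, at 1.65 ± 0.75 (edgeR adjusted p = 0.0958), was called in a fit of only the 4 groups (adjusted p = 0.0211). The differences for Spp1, -0.16 ± 1.30, and Thbs1, 0.44 ± 0.60, were not called. The 2 age steps share the libraries of 5 weeks.

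**Figure D5:**
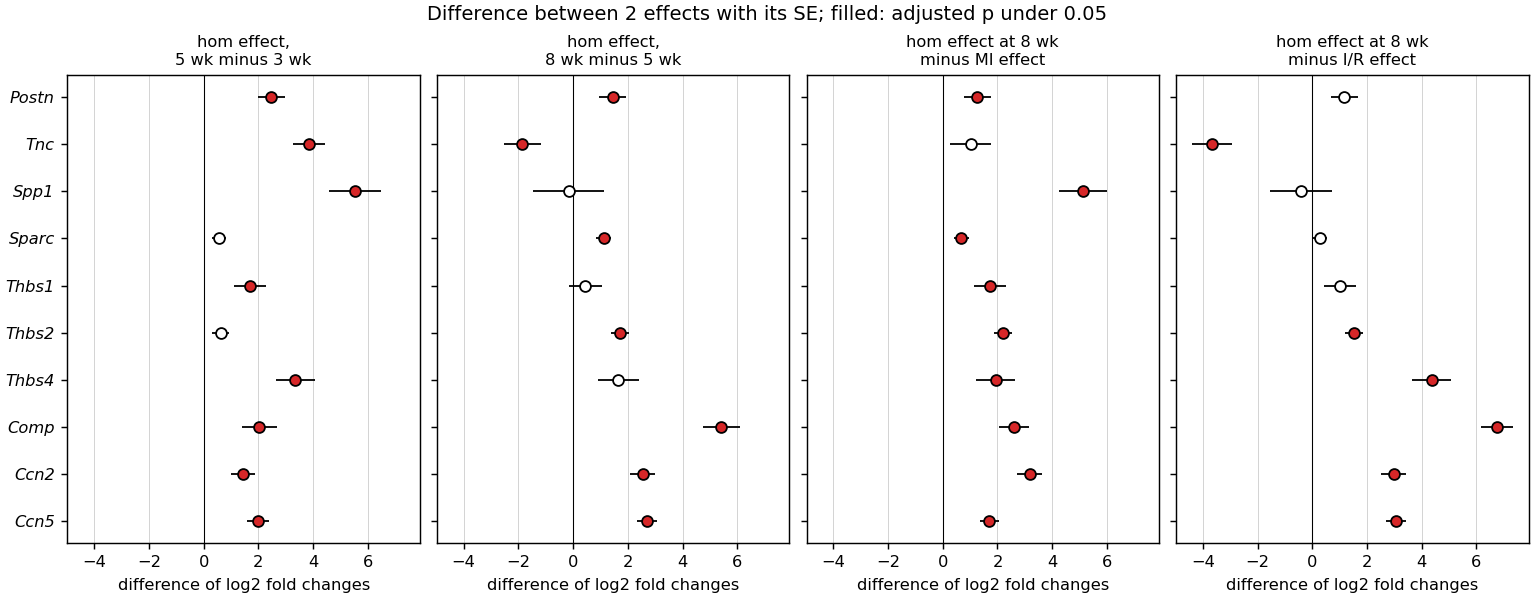
Difference between 2 log2 fold changes (x axis) for each gene (y axis) with its SE in 4 contrasts, filled where the adjusted p is under 0.05. Tnc lies at 3.85 from 3 to 5 weeks, at -1.85 from 5 to 8 weeks and at -3.67 against ischemia-reperfusion, while Comp lies at 2.04, 5.42 and 6.75.

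The homozygous effect at 8 weeks was also set against each surgery effect. It exceeded the infarction effect for 9 members, Tnc excepted, where 19.6% of all genes were called higher and 17.7% lower. The excess was 5.12 ± 0.87 for Spp1, 3.18 ± 0.46 for Ccn2, 2.60 ± 0.54 for Comp, 2.22 ± 0.33 for Thbs2 and 1.69 ± 0.35 for Ccn5 (edgeR adjusted p = 1.76e-05, 1.56e-06, 0.000233, 2.52e-06 and 0.000203). The other 4 calls changed when single libraries were left out. Without sham replicate 3 the excess was not called for Thbs1 (0.79 ± 0.50, against 1.72 ± 0.59 with it), Thbs4 (1.65 ± 0.74, against 1.93 ± 0.70), Postn (1.11 ± 0.53, against 1.27 ± 0.50) or Sparc (0.64 ± 0.28, against 0.68 ± 0.27), which left 5 members. The calls for Postn and Sparc were lost without any 1 of 10 of the 15 libraries, all but homozygous replicates 1 and 2, infarction replicate 2 and sham replicates 2 and 4 (adjusted p up to 0.12 and 0.2). In a fit of only the 4 groups the calls for Sparc and Thbs1 were lost (adjusted p = 0.0927 and 0.0683), and with DESeq2 that for Postn (adjusted p = 0.0595). For Thbs4 the call was lost without any 1 of 7, namely homozygous replicates 3 and 4, infarction replicate 4, sham replicates 1 and 3 and wild type replicates 2 and 3 (adjusted p up to 0.0809).

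Against the ischemia-reperfusion effect, the homozygous effect at 8 weeks was larger for 5 members and smaller for Tnc (16.6% of all genes higher, 17.2% lower). Comp differed by 6.75 ± 0.57, Thbs4 by 4.36 ± 0.72, Ccn5 by 3.06 ± 0.35, Ccn2 by 2.97 ± 0.46 and Thbs2 by 1.51 ± 0.32 (edgeR adjusted p = 2.24e-10, 1.69e-05, 3.98e-08, 5.54e-06 and 0.000454). Tnc differed by -3.67 ± 0.72 (edgeR adjusted p = 0.000169). Spp1, at -0.41 ± 1.12 (edgeR adjusted p = 0.814), was not called. Postn, at 1.17 ± 0.50 (edgeR adjusted p = 0.0699), was called without ischemia-reperfusion replicate 2 or sham replicate 4 (adjusted p down to 0.0277). These contrasts also set left ventricles of young mutants beside remote tissue of older operated males, so region and age cannot be told apart from the kind of disease.

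In wild type hearts several members changed with age between 3 and 8 weeks. Sparc changed by -1.05 ± 0.09 on the log2 scale (edgeR adjusted p = 1.45e-06), from 1333, 1719.8, 1334 and 1229 CPM to 671, 616 and 719.6. Postn changed by -0.82 ± 0.17 and Tnc by -1.32 ± 0.25, and Thbs2 and Thbs4 were lower too, while Ccn5 was higher by 1.84 ± 0.18 (edgeR adjusted p = 0.0031, 0.00147 and 2.60e-06). That is 5 members lower and 1 higher, where 8.44% of all genes were called higher and 7.81% lower. From 3 to 5 weeks Thbs1, Thbs2, Thbs4 and Comp were lower and Ccn5 higher (15.9% of all genes higher, 15.8% lower). From 5 to 8 weeks Postn, Tnc and Sparc were lower and Thbs1, Comp and Ccn5 higher (12.8% of all genes higher, 12.6% lower). Comp thus went from 6.89 ± 1.84 CPM to 2.82 ± 0.781 and 4.83 ± 1.98 over the 3 ages, with overlapping ranges at 5 and 8 weeks. With all 39 libraries in the fit only 2 members were called in each of these steps, Comp and Ccn5 from 3 to 5 weeks and Sparc and Ccn5 in the other 2. Single wild type libraries also decided several of these calls. From 5 to 8 weeks the call for Comp was lost without replicate 4 at 3 weeks, replicate 1, 2 or 4 at 5 weeks or replicate 1 or 2 at 8 weeks (adjusted p up to 0.308). That for Postn was lost without replicate 1, 2 or 4 at 5 weeks or replicate 1 or 2 at 8 weeks, and that for Thbs1 without replicate 2, 3 or 4 at 5 weeks or replicate 1 or 2 at 8 weeks (adjusted p up to 0.16 and 0.123). That for Tnc was lost without replicate 1 at 5 weeks or replicate 2 at 8 weeks (adjusted p up to 0.0918), while Ccn2 was called without replicate 3 at 8 weeks (adjusted p = 0.0289). Between 3 and 8 weeks the call for Thbs2 was lost without any 1 of 8 of the 11 libraries, all but replicates 1 and 2 at 3 weeks and replicate 1 at 5 weeks, and that for Thbs4 without replicate 1, 2 or 4 at 3 weeks or replicate 2 or 3 at 8 weeks (adjusted p up to 0.136 and 0.143). From 3 to 5 weeks that for Thbs1 was lost without replicate 4 at 5 weeks (adjusted p = 0.0548). In that step Postn was called without replicate 1 at 3 weeks, Tnc without replicate 1 at 5 weeks and Sparc without replicate 4 at 3 weeks or replicate 2 at 5 weeks (adjusted p down to 0.0424, 0.0324 and 0.0396). The ages also differ in depth, with 13.1 M to 15.7 M, 10.7 M to 12 M and 14.6 M to 18.4 M counts per wild type library at 3, 5 and 8 weeks, and its part in these changes was not tested. Libraries of 3 and 8 weeks carry names beginning with kb, and those of 5 weeks wt or pln with a number. In wild type hearts the cardiomyocyte markers summed to 73358 to 78230, 58371 to 61383 and 70175 to 74026 CPM at 3, 5 and 8 weeks. Wherever levels at 5 weeks are set against another age, age and set of libraries cannot be told apart.

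Counts over the gene lists below are to be read against the shares of all genes called, which were 22.3% higher and 21.4% lower at 5 weeks, 30.8% and 29% at 8 weeks, 16.9% and 14.1% after ischemia-reperfusion and 6.62% and 4.77% after infarction. Of 20 listed relatives of the 10 genes, 11 were tested. At 5 weeks 6 rose and 2 fell: Fstl1, which encodes a secreted SPARC-family glycoprotein, rose by 1.21 ± 0.08 and Sparcl1, the closest relative of Sparc, changed by -0.52 ± 0.07 (edgeR adjusted p = 1.45e-09 and 5.84e-06). Ccn3 changed by -0.95 ± 0.24 at that age. At 8 weeks 9 rose and none fell. Smoc1, another SPARC-family gene, rose by 4.16 ± 0.32, and Thbs3, the remaining thrombospondin, by 2.29 ± 0.19 (edgeR adjusted p = 8.20e-07 and 1.50e-06). After ischemia-reperfusion 4 rose and 3 fell, with Ccn4 at 2.83 ± 0.38 and Sparcl1 at -0.36 ± 0.09. After infarction 4 rose, with Thbs3 at 1.04 ± 0.16. The list's median was 0.56 and 1.76 at 5 and 8 weeks, -0.05 after ischemia-reperfusion and 0.33 after infarction.

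Of 22 receptors of matricellular proteins, at 5 weeks 15 rose and 4 fell, at 8 weeks 14 and 3, after ischemia-reperfusion 12 and 3, and after infarction 6 and none. The shares that fell at 5 weeks and after ischemia-reperfusion lie near those of all genes. Cd44, an osteopontin receptor, rose by 1.46 ± 0.12 at 5 weeks, 1.81 ± 0.20 after ischemia-reperfusion and 0.95 ± 0.20 after infarction (edgeR adjusted p = 1.33e-08, 1.16e-05 and 0.00832). Cd36, a thrombospondin receptor and fatty acid transporter, changed by -0.70 ± 0.07 and -0.65 ± 0.15 at 5 weeks and after ischemia-reperfusion (edgeR adjusted p = 1.03e-07 and 0.00374). Itgb6, an integrin chain that activates TGF-beta, changed by -5.14 ± 0.31 at 8 weeks and Itgb5 by 1.66 ± 0.13 (edgeR adjusted p = 3.19e-07 and 8.83e-07).

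Collagens and the other matrix partners rose with the members. At 5 weeks 16 of 17 tested rose, at 8 weeks 17 of 18, after ischemia-reperfusion 16 of 18 and after infarction 15 of 18, and none fell. Col3a1 rose by 2.05 ± 0.09 at 5 weeks. Lox, the collagen crosslinking enzyme that periostin is known to help activate, rose by 5.22 ± 0.30 at 8 weeks, 3.59 ± 0.33 after ischemia-reperfusion and 2.02 ± 0.33 after infarction (edgeR adjusted p = 2.63e-07, 3.10e-06 and 0.0018). Of 21 genes of TGF-beta and YAP signalling, 9 rose and 4 fell at 5 weeks, 11 and 1 at 8 weeks, 10 and 1 after ischemia-reperfusion and 8 and none after infarction. The share that fell at 5 weeks lies near that of all genes. Ltbp2, a latent TGF-beta binding protein family member that the activated fibroblast list also holds, rose by 2.78 ± 0.13, 4.63 ± 0.40 and 3.58 ± 0.42 at 5 weeks, at 8 weeks and after infarction (edgeR adjusted p = 1.49e-11, 1.82e-06 and 0.000213).

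Fibroblast markers rose in the same comparisons. Of 8, 7 rose at 5 weeks, 7 at 8 weeks, 5 after ischemia-reperfusion, where 1 fell, and 6 after infarction. They summed to 2348 to 2452 CPM in wild type and 3094 to 3900.3 in homozygous hearts at 5 weeks, and to 2056 to 2572 CPM in wild type and 6306 to 11468 CPM in homozygous hearts at 8 weeks. After ischemia-reperfusion they summed to 2273 to 2512 CPM and after infarction to 2839.5 to 3929, against 1987 to 2623 in shams. Of 8 activated fibroblast markers, 7 rose and 1 fell at 5 weeks, 6 rose at 8 weeks, 7 after ischemia-reperfusion and 5 after infarction. They summed to 457 to 559.8 and 531 to 823 CPM in wild type and homozygous hearts at 5 weeks and 243 to 269 and 692 to 1098 at 8 weeks, and to 154 to 263 in shams, 377 to 621 after ischemia-reperfusion and 382 to 823 after infarction. The 8 markers of matrifibrocytes, the late scar fibroblasts, and tendon summed to 35.0 to 39.3 and 131 to 241 CPM in wild type and homozygous hearts at 5 weeks, and 28.3 to 58.5 and 879 to 1654 at 8 weeks. They summed to 31.6 to 91.5 CPM in shams, 51.2 to 133 after ischemia-reperfusion and 253 to 548 after infarction. Of those tested, 3 of 6 rose at 5 weeks, 6 of 8 at 8 weeks, 1 of 8 after ischemia-reperfusion and 5 of 8 after infarction. Cilp, a cartilage matrix gene of that list, rose by 2.67 ± 0.15, 4.94 ± 0.64 and 3.14 ± 0.42 at 5 weeks, at 8 weeks and after infarction, and Angptl7 by 6.73 ± 0.45 at 8 weeks and 2.01 ± 0.29 after infarction (edgeR adjusted p for Cilp = 1.12e-10, 3.21e-05 and 0.000445). None of the markers in these 3 lists was at 0 in any group. The 8 cardiomyocyte markers moved the other way, with 58371 to 61383 CPM in wild type and 39264 to 46812 in homozygous hearts at 5 weeks and 70175 to 74026 and 31313 to 48038 at 8 weeks. Of these, 8 fell at 5 weeks, 6 at 8 weeks, 7 after ischemia-reperfusion and 1 after infarction. Markers of the epicardial mesothelium, 7 genes, rose in 5 of 6 tested at 8 weeks, where Upk1b was at 0 in all wild type hearts, and in 0 of 3 at 5 weeks. At 8 weeks they summed to only 5.00 to 8.50 CPM in wild type and 17.7 to 28.8 in homozygous hearts. Platelet markers, 6 genes, summed to 14.9 to 16.4 CPM in wild type and 36.9 to 46.1 in homozygous hearts at 5 weeks, 12.4 to 15.3 and 21.7 to 40.1 at 8 weeks, and 14.4 to 24.4 in shams, 45.9 to 79.9 after ischemia-reperfusion and 12.9 to 15.4 after infarction, with none at 0. Of those tested, 2 of 3 rose at 5 weeks, 4 of 4 at 8 weeks and 1 of 4 after ischemia-reperfusion, and 2 of 4 fell after infarction. Neutrophil markers, 5 genes, rose in 1 of 1 tested at 5 weeks and 3 of 3 at 8 weeks and after ischemia-reperfusion, where they summed to 27.0 to 48.7 CPM against 3.19 to 7.62 in shams, in which Ly6g was at 0. They summed to 2.92 to 4.06 CPM in wild type and 6.44 to 9.78 in homozygous hearts at 5 weeks, and 2.01 to 2.89 and 6.56 to 13.8 at 8 weeks. Genes this low can pass the filter only through the group where they are high. The mesothelial, platelet and neutrophil counts of risen genes are therefore no separate support. Endothelial markers fell in 8 of 8 and smooth muscle and pericyte markers in 7 of 8 at 5 weeks, and each in 5 of 8 at 8 weeks, where 2 and 1 rose. The part of these cells in the members' changes was not tested.

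The named genes most like each member were ranked by Pearson correlation of log2 CPM over the 39 libraries among 14931 genes, as a description. The libraries fall into groups that all genes share, and no test was made. Comp was most like Prelp (0.96), Nox4 (0.94) and Fbln5 (0.94), and Thbs4 like Cilp (0.96), Frzb (0.95) and Ltbp2 (0.94). Tnc was most like Pf4 (0.93), Kdelr2 (0.93) and Glipr2 (0.92), and Spp1 like Timp1 (0.94), Socs3 (0.94) and Gpnmb (0.93). Postn was most like Emp1 (0.96), Msn (0.96) and Sulf1 (0.96). Serpinb6a (0.94) and Sdc4 (0.94) were among the genes most like Ccn2. Ccn5 was most like C4b (0.95), Sparc like C1qtnf6 (0.93), Thbs2 like Jaml (0.91) and Thbs1, with the lowest best value, like Emb (0.88).

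The members lie apart in the genome (GRCm38), except that Thbs1 and Ccn5 share a chromosome. Postn (ENSMUSG00000027750) lies on chromosome 3 from 54361109 to 54391037, Tnc (ENSMUSG00000028364) on 4 from 63959785 to 64047015 and Spp1 (ENSMUSG00000029304) on 5 from 104435118 to 104441050. Sparc (ENSMUSG00000018593) lies on 11 from 55394500 to 55423183. Thbs1 (ENSMUSG00000040152) lies on 2 from 118111876 to 118127133, Thbs2 (ENSMUSG00000023885) on 17 from 14665500 to 14694235, Thbs4 (ENSMUSG00000021702) on 13 from 92751590 to 92794818 and Comp (ENSMUSG00000031849) on 8 from 70373558 to 70382066. Ccn2 (ENSMUSG00000019997) lies on 10 from 24595442 to 24598683 and Ccn5 (ENSMUSG00000027656) on 2 from 163820861 to 163833146. All 10 are protein coding, with 3 exon blocks in Ccn2 to 27 in Tnc.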

How the data were processed

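RNA of left ventricles was measured in 39 libraries. Trizol extraction and stranded TruSeq mRNA libraries are named in the labels' protocols. Per the submitters' processing notes, the mouse genome mm10, STAR 2.7.3a and featureCounts of Subread 2.0.0 were used. The authors deposited raw whole-number counts for each gene, not normalized. Annotation and strand setting: not given in the sources used here. GENCODE vM21 named 36345 of 38293 gene IDs, and unnamed IDs held 0.133% of counts.

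Groups came from the labels. Counts were scaled with TMM, filtered with filterByExpr and tested with edgeR 4.0.16 (R 4.3.3) by the quasi-likelihood test, with 1 fit for each age of the mutant set, 1 for the wild type ages, 1 for the surgery set and, for differences between effects, 1 of all 39 libraries. Each SE was computed as the size of the log2 fold change over the root of the F statistic. Fold changes follow TMM scaling and can differ from ratios of CPM. The scripts were tested on simulated data.

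All 10 members are named in every comparison. From each gene list at most 3 called genes of smallest adjusted p with at least 5 CPM in a group are named, with 1 that moved the other way, and for each member the most alike genes. Some of the genes this rule names are not reported here. The members, lists and tests were chosen with earlier results of these data known. Alternatives were DESeq2 1.42.0, RLE and library size scaling, no filter, other sets of libraries, shams of matching age, a replicate block, and leaving out each library.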

Additional observations from a re-analysis of the deposited data

Results flagged for a closer look

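In 8 of 90 sets of a member and a group of 4 libraries, the highest or lowest library was far from the rest of its group (Dixon's test at 95%, which chance passes in about 1 in 20 sets). Heterozygous replicate 2 at 8 weeks stood high in Tnc (4.64 CPM) and Ccn5 (32.9 CPM). Homozygous replicate 1 at 8 weeks stood low in Spp1 (18.0 CPM) and Thbs1 (57.3 CPM). Sham replicate 3 stood high in Thbs1 (91.5 CPM). In wild type hearts, replicate 1 at 3 weeks stood high in Spp1 (2.51 CPM), and replicates 2 and 3 at 5 weeks stood high in Sparc (1409 CPM) and Ccn5 (9.93 CPM).

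The effects of 2 contrasts differed by the edgeR test of the difference in 30 cases. Of all genes, 11.1% were called higher and 9.29% lower for 5 minus 3 weeks, and 14.4% and 13.8% for 8 minus 5 weeks. Against infarction these shares were 19.6% and 17.7%, and against ischemia-reperfusion 16.6% and 17.2%. Leaving out single libraries undid the calls for Thbs1 and Comp (5 minus 3 weeks) and Postn and Tnc (8 minus 5 weeks). It also undid those for Postn, Sparc, Thbs1 and Thbs4 (against infarction). The homozygous effect at 5 weeks exceeded that at 3 weeks, on the log2 scale, by 2.48 in Postn, 3.85 in Tnc, 5.54 in Spp1, 1.70 in Thbs1, 3.36 in Thbs4, 2.04 in Comp, 1.43 in Ccn2 and 1.99 in Ccn5. The effect at 8 weeks minus that at 5 weeks was 1.44 in Postn, -1.85 in Tnc, 1.12 in Sparc, 1.73 in Thbs2, 5.42 in Comp, 2.55 in Ccn2 and 2.71 in Ccn5. The homozygous effect at 8 weeks minus the infarction effect was 1.27 in Postn, 5.12 in Spp1, 0.68 in Sparc, 1.72 in Thbs1, 2.22 in Thbs2, 1.93 in Thbs4, 2.60 in Comp, 3.18 in Ccn2 and 1.69 in Ccn5. Minus the ischemia-reperfusion effect it was -3.67 in Tnc, 1.51 in Thbs2, 4.36 in Thbs4, 6.75 in Comp, 2.97 in Ccn2 and 3.06 in Ccn5.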

How the results depend on the processing

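Of 2647 values of members under alternatives, 2502 kept their side of the threshold, 120 lost the call, 25 gained one and none reversed a called direction. Of all these, 43 that were not called changed sign. With all 39 libraries in the fit, 2 members were called in each wild type comparison (5 weeks against 3, 8 against 5, 8 against 3), against 5, 6 and 6. With each library left out in turn, 0 to 0 members were called at 3 weeks and in heterozygous hearts, 10 to 10 in homozygous hearts at 5 and at 8 weeks and against heterozygous hearts, 8 to 9 after ischemia-reperfusion, 6 to 8 after infarction and 5 to 7 between them. In wild type hearts these ranges were 4 to 6, 2 to 7 and 4 to 6, and for differences between effects 6 to 9 (5 minus 3 weeks), 5 to 7 (8 minus 5 weeks), 5 to 9 (against infarction) and 6 to 7 (against ischemia-reperfusion). The cause was not tested. At 3 weeks edgeR called 0 genes, against 112 by DESeq2, 40 with all 39 libraries and 25 with no filter. Age-matched shams called 2136 genes after ischemia-reperfusion and 941 after infarction, against 4222 and 1550 with all shams, with fewer libraries in the fit. In wild type hearts at 8 against 3 weeks all 39 libraries called 1254 genes, against 2245. Scaling by library size moved the median of all genes by 0.21 at 5 weeks, 0.16 at 8 weeks, 0.23 after ischemia-reperfusion and 0.11 after infarction, and no member called there changed direction. Counts of 6 per library limit Spp1 in wild type hearts.

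Replicate numbers did not pair the samples: deviations of same-numbered libraries correlated at -0.0888 to 0.202, and 14 of 44 libraries were closest to their own number. With the replicate block, 10 members were called at 5 weeks, at 8 weeks and against heterozygous hearts, 0 at 3 weeks and in heterozygous hearts, 7 between the injuries (Thbs1 gained, 0.78, adjusted p = 0.0111), 5, 4 and 5 in wild type hearts, 10 for 5 minus 3 weeks and 8 for 8 minus 5 weeks. No paired analysis was possible because sham numbers only name samples, for the comparisons with sham.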
